A study of Homo sapiens with 10 samples.

Results

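The genes described here are the kinases that phosphorylate elongating RNA polymerase II and their direct partners: CDK9, CDK12 and CDK13, the cyclins CCNT1, CCNT2 and CCNK, the inhibitory factors HEXIM1 and LARP7, and the scaffold AFF4. They were chosen by name, and all 9 were found among the 31015 genes with a 3′ UTR interval in the deposited tables. Their RNA was measured with SLAM-seq in 22RV1, a widely used human prostate cancer line that grows without androgen. The study asked how inhibitors of the splicing kinase SRPK1 and of CDK12, alone and together, change transcription in these cells.

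There were 10 libraries in 5 groups of 2 replicates: control cells that received no inhibitor, and cells given SRPIN340 (20 μM), Endovion (50 μM), THZ531, or THZ531 and Endovion together. Exposure lasted 4 h in each treated group. SRPIN340 and Endovion were used as inhibitors of SRPK1, and THZ531 as an inhibitor of CDK12, which is known to act on CDK13 as well. The dose of THZ531 is given as 100 nM in the methods and as 150 nM in the text of the series. The cells of every group received 4-thiouridine for the last 10 min. Cells put this analog into RNA as they make it, and alkylation turns it into a base sequenced as C at a T position, so that a read with such a T>C conversion marks RNA made during the labeling. T>C reads are called nascent RNA below, all reads total RNA, and the percentage of a gene's reads with a conversion its labelled share. Levels are given as CPM, the count of a gene scaled to a fixed number of reads of that class on genes and corrected for composition (TMM). These are relative levels: fewer cells and less RNA per cell cannot be told apart, and a change shared by most genes is not seen. A gene said below to rise or fall did so relative to the other genes. The libraries were built with unique molecular identifiers, and whether reads were reduced by them before counting is not given in the sources used here. No library without 4-thiouridine was analysed here, so the T>C reads that sequencing errors give were not measured. Whether T>C variants of the cell line were masked is not given in the sources used here. Shares were not corrected for the number of T bases read. Nothing in the labels says that replicates came from separate cultures, and the p-values measure the spread between these libraries, which may be technical.

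CDK9 binds cyclin T1 or T2 (CCNT1, CCNT2) to form P-TEFb, the kinase that releases RNA polymerase II paused near the promoter. Most P-TEFb is held inactive in a particle built on the 7SK RNA, in which HEXIM1 blocks the kinase and LARP7 stabilizes the RNA. AFF4 is the scaffold of the super elongation complex, which brings active P-TEFb to genes. CDK12 and CDK13 both bind cyclin K (CCNK) and phosphorylate the polymerase further along the gene, and CDK12 is known for keeping polymerase on long genes from ending at early polyadenylation sites. HEXIM1 is widely used as a readout of P-TEFb, since its transcript is known to rise when cells release P-TEFb from the 7SK particle. An inhibitor acts on the kinase protein, so the mRNA of CDK12 does not check whether THZ531 reached its target.

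The reads are from 3′ ends, and the intervals that carried them are all annotated as 3′ UTRs (hg38). RNA that ends outside a listed interval was not counted, so total RNA here means the reads of listed ends. The interval of CDK9 is chr9:127789544-127790787, that of CDK12 chr17:39531317-39535146, and that of CDK13 chr7:40094981-40099580. CCNK was read at chr14:99510783-99512440 and CCNT2 at chr2:134954649-134959342. CCNT1 was read at chr12:48688458-48694436, and a second, short interval of the gene carried at most 0.378% of its reads. HEXIM1 was read at chr17:45150271-45152101 and LARP7 at chr4:112657328-112657586. AFF4 had a long interval at chr5:132875379-132881058 and a short one, of a shorter transcript, at chr5:132891817-132892097. The interval of CCNK overlaps one of CCDC85C on the other strand. Whether reads were counted by strand is not given in the sources used here, so the values of CCNK are uncertain to that extent. The genes themselves span from 3625 bases (HEXIM1) and 5114 bases (CDK9) to 106074 bases (CDK12) and 149460 bases (CDK13).

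A polyadenylation hexamer within the last 50 bases of an interval is shown for 3 genes whose RNA rose. It is shown because these libraries are primed at the poly(A) tail, which follows such a signal. The tables hold no read positions, so which end within an interval was used is not known. The genome sequence is given 5′ to 3′ along the transcript, with the hexamer in capitals.
HEXIM1 (plus strand, chr17:45152071-45152094): aaaaattatATTAAAcatttattt
CCNT2 (plus strand, chr2:134959308-134959331): caaggaactAATAAAatgtttatt
AFF4, long interval (minus strand, chr5:132875411-132875434): actaagtttAATAAAtatcaaata
The interval of HEXIM1 held the variant ATTAAA, and those of CCNT2 and AFF4 held AATAAA. The string ended 16 bases before the end of the interval in HEXIM1, 20 in CCNT2 and 41 in AFF4. Both letter strings were searched on the transcript strand in the last 50 bases of each interval. One of them was present in 39.9% of the 53893 intervals of at least that length, and AATAAA in 31.9%. The intervals of CDK13, CCNT1 and LARP7 also held AATAAA. The intervals of CDK9, CDK12 and CCNK and the short interval of AFF4 held neither string in this window.

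The libraries had between 19315560 and 30047897 reads on genes, of which 1011598 to 1576121 were T>C reads (5.04% to 5.70%). No library had fewer than 57 reads of any of the 9 genes, but T>C reads were scarce for CDK9, with 1 to 19 per library, and for CCNT2, with 17 to 67. Of 10 markers of the prostate line, 7 exceeded 10 CPM in every library, and the sum of the list was 1935 and 1939 CPM in control cells, 1922 to 1944 with SRPIN340, 1806 to 1851 with Endovion, 1616 to 1647 with THZ531 and 1526 to 1613 with the combination. It was thus lower in every library with THZ531, and its part in the results was not tested. The secreted kallikrein KLK3 was low (2.63 to 8.09 CPM), as was TMPRSS2 (1.03 to 2.79 CPM). Of 9 markers of other cell types, 6 stayed under 1 CPM in every library, and their sum was 12.5 to 18.9 CPM, most of it ALB.

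In control cells CCNT1 gave the most reads of the 9 genes, 199.6 ± 0.9 CPM (SD, n = 2), and CDK9 the fewest, 2.75 ± 0.50 CPM. In between, CDK12 had 73.1 ± 11.8, HEXIM1 54.7 ± 0.1, AFF4 45.6 ± 13.5, CCNK 27.1 ± 0.02, CDK13 25.1 ± 1.8, LARP7 21.9 ± 4.3 and CCNT2 17.8 ± 0.3 CPM. Reads came from the 3′ end of a transcript, so these levels do not scale with its length and were not divided by it. HEXIM1 and AFF4 stood within the spread of the controls of each other, as did CDK13 and LARP7. CCNK lay above CDK13 in both control libraries (27.2 and 27.1 CPM against 26.4 and 23.8 CPM). The control labelled share of LARP7 was 15.1% over both libraries, at percentile 94.9 of the 11378 genes with at least 100 control reads, whose median was 4.89%. CDK9 (11.1%), CCNK (10.7%) and CDK13 (9.49%) were also above the upper quartile of 7.64%. AFF4 (7.91%) lay just above that quartile, while CCNT1 (5.40%), HEXIM1 (5.11%), CDK12 (4.10%) and CCNT2 (4.01%) were near the median. As shares were not corrected for the T bases read, this order of genes is a description and not a measured rate of labelling. The control libraries of HEXIM1 stood far apart in this measure. Replicate 1 had 118 T>C reads among 1534 (7.69%, exact 95% interval 6.41 to 9.14) and replicate 2 had 27 among 1303 (2.07%, 1.37 to 3.001), although their total RNA was 54.7 and 54.8 CPM. Every nascent or share value of HEXIM1 against control rests on these libraries.

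**Figure D1:**
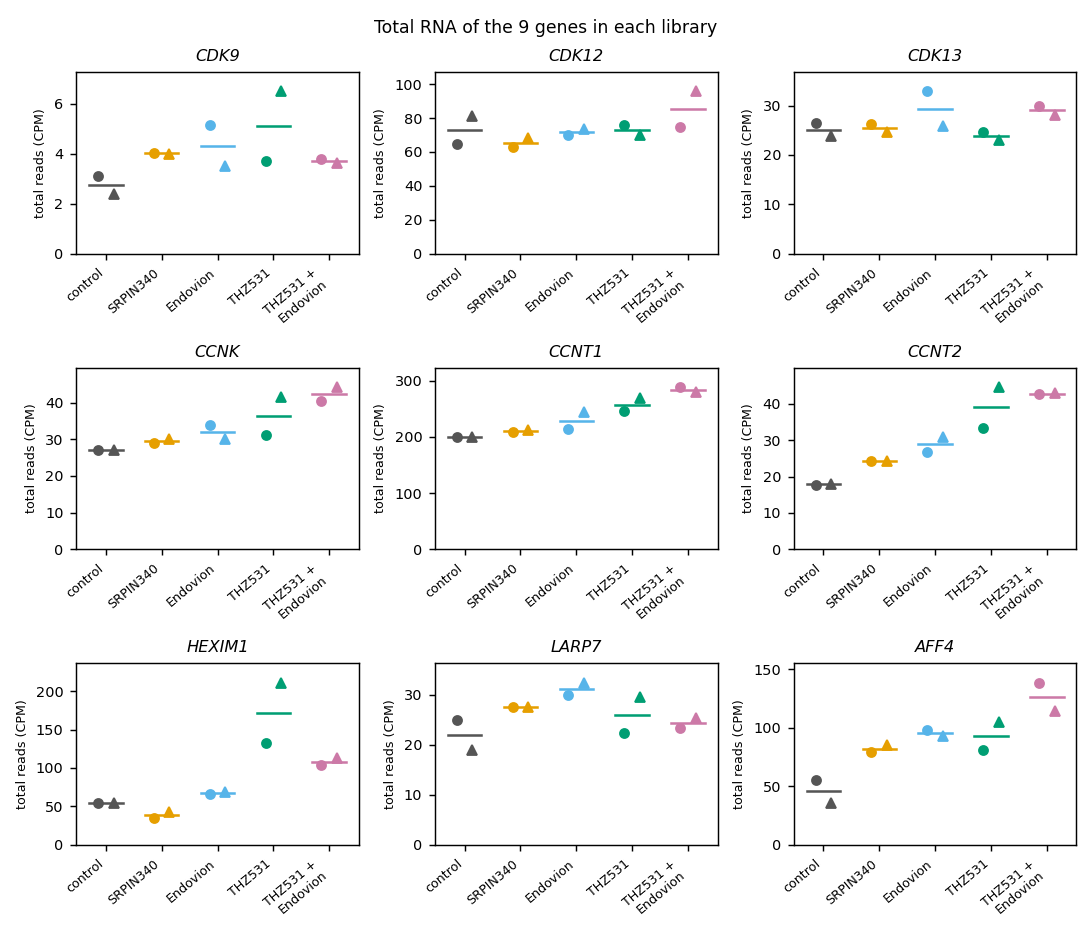
Total RNA of the 9 genes in CPM (vertical axes, starting at 0) in each group, with a circle for replicate 1, a triangle for replicate 2 and a line at their mean. HEXIM1 ranged from 34.3 CPM with SRPIN340 to 211 CPM with THZ531, while CDK12 stayed between 62.8 and 95.7 CPM.

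With THZ531 the total RNA of 6 of the 9 genes rose and that of none fell at an adjusted p under 0.05 (edgeR). The same threshold was passed by 30.7% of all 14690 genes tested, in both directions. With THZ531 and Endovion together 5 of the 9 rose, where 29.0% of all genes changed, and with Endovion alone 2 rose, where 11.4% changed. With SRPIN340 only AFF4 passed, where 1.96% of all genes did. The median log2 change of the 9 genes was 0.42 with THZ531, 0.51 with the combination, 0.30 with Endovion and 0.12 with SRPIN340, while the median over all genes was between -0.01 and 0.03. All of these comparisons share the same 2 control libraries, so they are not independent of each other.

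Among the kinases, CDK12 gave 64.8 and 81.4 CPM of total RNA in the control libraries. The treated libraries gave 62.8 and 68.3 CPM with SRPIN340, 70.2 and 73.3 with Endovion, 75.7 and 69.8 with THZ531, and 74.6 and 95.7 with the combination. Every group overlapped with the controls. The log2 change with THZ531 was -0.01 ± 0.14 (SE, 95% interval -0.31 to 0.30). Its nascent RNA was 40.6 and 73.0 CPM in control cells and 99.1 and 82.6 CPM with the combination, above both controls, but the log2 change of 0.69 ± 0.29 did not pass (adjusted p = 0.138).

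CDK13, the closest relative of CDK12, had 26.4 and 23.8 CPM of total RNA in control cells and 24.7 and 22.9 CPM with THZ531. The groups overlapped, with a log2 change of -0.08 ± 0.15 (95% interval -0.40 to 0.25). Its nascent RNA was lower with SRPIN340 (28.4 and 34.4 CPM) than in both controls (36.7 and 53.8 CPM), and the log2 change of -0.51 ± 0.34 did not pass (adjusted p = 0.645). With Endovion the nascent level was 56.01 and 52.9 CPM, so that the difference between Endovion and SRPIN340 was 0.79 ± 0.34 (unadjusted p = 0.0231, and far from passing after adjustment).

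CDK9, the kinase of P-TEFb, had few reads. Its total RNA was 3.10 and 2.40 CPM in control cells, from 87 and 57 reads, and 3.72 and 6.49 CPM with THZ531, from 101 and 121 reads. The log2 change of 0.87 ± 0.31 passed narrowly (adjusted p = 0.0444), and it was kept in 5 of 16 alternative settings. Without THZ531 replicate 2, which is the higher library, it was 0.38 (adjusted p = 0.519), and without control replicate 2 it was 0.67 (adjusted p = 0.251). It was also lost without control replicate 1 (1.08, adjusted p = 0.0536), either SRPIN340 library, Endovion replicate 1 or either combination library, at values of 0.83 to 0.88 for the last 5 and adjusted p-values up to 0.0631. Both libraries of each treatment were above both controls, with 4.04 and 4.00 CPM with SRPIN340, 5.13 and 3.51 with Endovion, and 3.77 and 3.61 with the combination, but none of these passed (adjusted p = 0.190 to 0.356). With 1 to 19 T>C reads per library, the nascent change of CDK9 with THZ531 had an interval from -0.57 to 2.97 on the log2 scale, and its direction was not detectable at this depth.

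Of the cyclins, CCNT2 changed most. Its total RNA was 17.6 and 18.004 CPM in control cells, 24.4 in both SRPIN340 libraries, 26.9 and 31.0 CPM with Endovion, 33.4 and 44.6 with THZ531, and 42.6 and 42.8 with the combination. No treated library overlapped with the controls, and the lowest combination library exceeded both Endovion libraries. The log2 change was 1.13 ± 0.16 with THZ531 (adjusted p = 0.000109), 1.26 ± 0.16 with the combination (adjusted p = 6.10e-05) and 0.70 ± 0.16 with Endovion (adjusted p = 0.0113). The first and second held in all 16 alternative settings. The Endovion call was lost without control replicate 2 (0.67, adjusted p = 0.0968) and without Endovion replicate 2 (0.59, adjusted p = 0.100). With SRPIN340 the log2 change was 0.45 ± 0.16 (adjusted p = 0.129).

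The nascent RNA of CCNT2 was lowest in control cells and had the highest group mean with the combination. It was 10.9 and 16.05 CPM in control cells (17 and 20 T>C reads), 43.6 and 32.5 CPM with THZ531, and 53.4 and 43.3 CPM with the combination. The log2 change was 1.52 ± 0.43 with THZ531 (adjusted p = 0.0194) and 1.85 ± 0.43 with the combination (adjusted p = 0.00290). The THZ531 call was lost without control replicate 1 (1.27, adjusted p = 0.144) or without either THZ531 library (1.28, adjusted p = 0.175, and 1.70, adjusted p = 0.0510), and the combination call without its replicate 1 (1.69, adjusted p = 0.0610). SRPIN340 gave 33.8 and 27.5 CPM and Endovion 16.1 and 44.2 CPM, log2 changes of 1.19 ± 0.43 and 1.14 ± 0.45 that did not pass (adjusted p = 0.230 and 0.191).

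CCNT1, the more abundant partner of CDK9 in these reads, moved less. Its total RNA was 199.0 and 200.2 CPM in control cells, 246 and 269 CPM with THZ531 and 289 and 279 CPM with the combination, with no overlap. The log2 change was 0.37 ± 0.11 with THZ531 (adjusted p = 0.0151) and 0.51 ± 0.11 with the combination (adjusted p = 0.00235). The former was 0.25 without THZ531 replicate 2 (adjusted p = 0.225) and 0.33 without control replicate 2 (adjusted p = 0.0782). Its labelled share was the steadiest of the 9 genes, between 4.23% and 5.70% in every library. It also had the most reads of them, 4759 to 6681 per library, which narrows the counting error of its share.

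CCNK, the cyclin of CDK12 and CDK13, had 27.2 and 27.1 CPM of total RNA in control cells, 31.2 and 41.6 CPM with THZ531, and 40.4 and 44.2 CPM with the combination. The log2 change of 0.64 ± 0.15 with the combination passed (adjusted p = 0.00558) and was kept in all 16 alternative settings. The change of 0.42 ± 0.15 with THZ531 passed narrowly (adjusted p = 0.0468) and was kept in 3 of 16. It was 0.14 without THZ531 replicate 2 (adjusted p = 0.625), 0.38 without control replicate 2 (adjusted p = 0.182) and 0.42 without control replicate 1 (adjusted p = 0.107). It was lost without any library of SRPIN340, Endovion or the combination too, at 0.37 to 0.42 (adjusted p = 0.0521 to 0.0874), and kept only without THZ531 replicate 1. Its nascent RNA was 50.8 and 57.0 CPM in control cells and 56.6 and 53.9 CPM with THZ531, a log2 change of 0.04 ± 0.30.

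**Figure D2:**
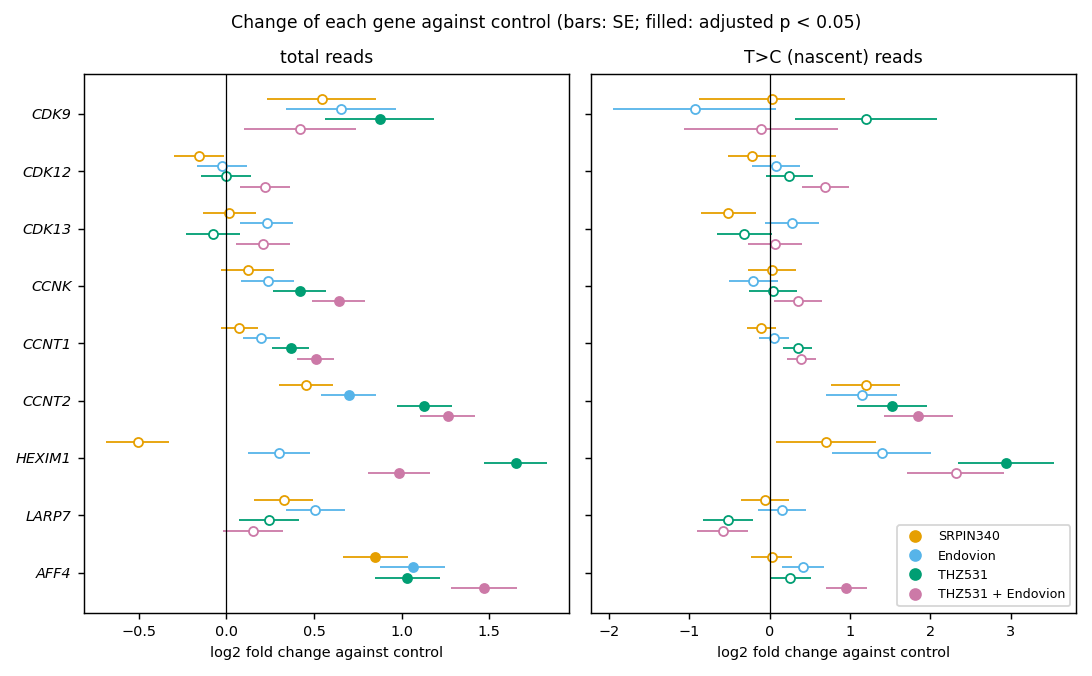
Log2 fold change against control of total reads (left) and T>C reads (right) for the 9 genes, with the 4 treatments in colour, bars of 1 standard error, and filled points at an adjusted p under 0.05. HEXIM1 had the largest change with THZ531 in both panels, 1.65 and 2.95, and CDK12 and CDK13 had no filled point.

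HEXIM1 had the largest change of the 9 genes with THZ531. Its total RNA was 54.7 and 54.8 CPM in control cells, 34.3 and 42.7 CPM with SRPIN340, 66.7 and 68.2 with Endovion, 133 and 211 with THZ531, and 104 and 113 with the combination. THZ531 alone was above every other group, SRPIN340 was below the controls, and no group overlapped with the controls. The log2 change was 1.65 ± 0.18 with THZ531 (adjusted p = 3.85e-05), a ratio of means of 3.14, and 0.99 ± 0.18 with the combination (adjusted p = 0.00144), a ratio of 1.98. Both held in all 16 alternative settings. The values with SRPIN340 (-0.51 ± 0.18, adjusted p = 0.147) and Endovion (0.30 ± 0.18, adjusted p = 0.30003) did not pass, although the former did without either THZ531 library or with no filter on low counts.

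The nascent RNA of HEXIM1 was 76.0 and 21.7 CPM in control cells, 60.9 and 101 CPM with SRPIN340, 124 and 140.4 with Endovion, 271 and 508 with THZ531, and 247 and 252 with the combination. Only the SRPIN340 libraries overlapped with the controls. With THZ531 the log2 change was 2.95 ± 0.60 (adjusted p = 0.0457). It was 2.35 without control replicate 2 (adjusted p = 1.74e-05) and 4.16 without control replicate 1 (adjusted p = 1.60e-09), and the call was lost without either library of SRPIN340, Endovion or the combination, with values of 2.95 and adjusted p-values of 0.0652 to 0.0947. With the combination the change was 2.31 ± 0.60 (adjusted p = 0.0871), which DESeq2 called (adjusted p = 0.00791), and it was 1.72 without control replicate 2 (adjusted p = 0.000697) and 3.53 without control replicate 1 (adjusted p = 2.98e-08). With Endovion the change was 1.39 ± 0.61 (adjusted p = 0.400), and 0.79 without control replicate 2 (adjusted p = 0.318) against 2.602 without control replicate 1 (adjusted p = 1.46e-05). With SRPIN340 it was 0.70 ± 0.62 (adjusted p = 0.774), and 0.10 against 1.91 (adjusted p = 0.974 and 0.00241). For HEXIM1 the size of every nascent change thus depends on which control library is kept.

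LARP7, the partner of HEXIM1 on 7SK RNA, had 24.9 and 18.9 CPM of total RNA in control cells, 27.5 in both SRPIN340 libraries, 30.0 and 32.4 CPM with Endovion, 22.4 and 29.6 with THZ531, and 23.4 and 25.4 with the combination. Only SRPIN340 and Endovion stood above both controls, and no change passed. The largest was 0.51 ± 0.17 with Endovion (adjusted p = 0.0643). Its nascent RNA was 59.9 and 64.2 CPM in control cells against 43.6 and 42.7 CPM with THZ531 and 45.8 and 36.4 CPM with the combination, below both controls. The log2 changes of -0.52 ± 0.31 and -0.59 ± 0.31 did not pass (adjusted p = 0.343 and 0.271).

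AFF4 was the member that passed for total RNA with every treatment. It gave 55.2 and 36.0 CPM in control cells, 79.4 and 85.1 CPM with SRPIN340, 97.8 and 93.0 with Endovion, 81.3 and 105 with THZ531, and 139 and 114 with the combination. All treated libraries were above both controls, which themselves lay well apart. The log2 change was 1.47 ± 0.19 with the combination (adjusted p = 0.000165) and 1.03 ± 0.19 with THZ531 (adjusted p = 0.00144), both kept in all 16 alternative settings. It was 1.06 ± 0.19 with Endovion (adjusted p = 0.00534), and 1.03 (adjusted p = 0.0519) without Endovion replicate 1. With SRPIN340 the change of 0.85 ± 0.18 passed narrowly (adjusted p = 0.0412), was kept in 6 of 16 settings, and fell to 0.54 (adjusted p = 0.361) without control replicate 2, the lower control. It was also lost without SRPIN340 replicate 1 or 2 (0.90, adjusted p = 0.0675, and 0.80, adjusted p = 0.267). Without either library of Endovion or of the combination it lay between 0.80 and 0.85 (adjusted p = 0.0532 to 0.0805).

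The nascent RNA of AFF4 passed with the combination, rising from 72.7 and 61.8 CPM in control cells to 138 and 123 CPM, a log2 change of 0.95 ± 0.25 (adjusted p = 0.0101). This was 0.84 without control replicate 2 (adjusted p = 0.112) and 0.86 without combination replicate 1 (adjusted p = 0.132). With SRPIN340 the nascent level was 68.3 and 68.9 CPM, inside the control range, a log2 change of 0.02 ± 0.26, while total RNA had risen by 0.85. With THZ531 it was 65.7 and 97.6 CPM, a change of 0.26 ± 0.26 (adjusted p = 0.635).

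The 2 ends of AFF4 differed in their share of T>C reads. The short interval held between 3.29% and 8.14% of the gene's reads, and between 10.2% and 35.7% of its reads were T>C reads. The long interval held the rest, with a labelled share of 3.45% to 8.92%. In each of the 10 libraries the share was higher at the short end. In control replicate 2 this rested on 5 T>C reads among 49 at the short end (10.2% against 8.92%). The short interval has 85 T positions in 281 bases and the long one 1982 in 5680, for which the shares were not corrected. Tested as an interval of its own, the long end followed the gene, with a log2 change of total reads of 1.02 ± 0.17 with THZ531 (adjusted p = 0.000574). The short end, with 49 to 147 reads per library, gave 0.56 ± 0.33 (adjusted p = 0.218). The difference between the ends was not tested.

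For nascent RNA, 2 of the 9 genes passed with THZ531 (HEXIM1 and CCNT2), where 7.46% of the 9946 genes tested did. Likewise 2 passed with the combination (CCNT2 and AFF4), where 8.1% of all genes did. None passed with SRPIN340 (1.04% of all genes) or Endovion (2.66% of all genes) in edgeR, and 1 gene of the 9, CCNT2, had an unadjusted p under 0.05 with each of them, where 10.4% and 14.1% of all genes did. DESeq2 gave no call among the 9 with either of the SRPK1 inhibitors. At the threshold of the study, an unadjusted p under 0.05 and a log2 change of at least 1 in size, CCNT2 passed with every treatment, and HEXIM1 with THZ531 and the combination. That threshold was passed by 4.66% of all genes with SRPIN340, 6.49% with Endovion, 12% with THZ531 and 11.3% with the combination.

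**Figure D3:**
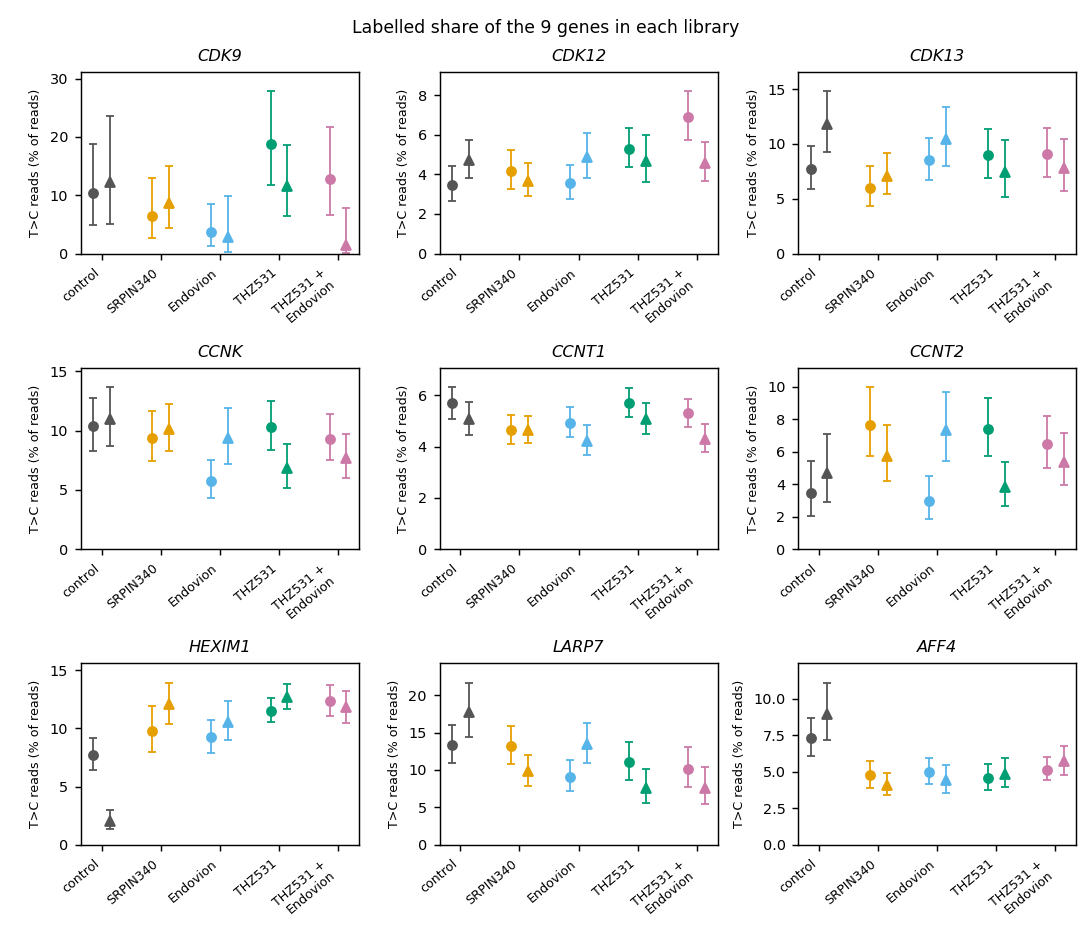
Labelled share of the 9 genes, as the percentage of a gene's reads with a T>C conversion (vertical axes, starting at 0), for replicate 1 (circle) and replicate 2 (triangle) of each group, with exact 95% binomial intervals for counting error. AFF4 was 7.30% and 8.995% in control cells and at most 5.73% in treated libraries, and HEXIM1 control replicate 2 stood alone at 2.07%.

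The labelled share was tested relative to the share of all genes in the same library. None of the 9 genes passed at an adjusted p under 0.05 in edgeR, where 0.161% of all genes did with SRPIN340, 0.453% with Endovion, 0.362% with THZ531 and 1.02% with the combination. At an unadjusted p under 0.05 there were 2 of the 9 with SRPIN340 and with Endovion, and 3 with THZ531 and with the combination. Of all genes 8.13%, 9.32%, 10.1% and 12.1% met this limit, in the same order. The absolute share, without the scaling between libraries, gave HEXIM1 with the combination (1.48, adjusted p = 0.0261), and with no filter on low counts HEXIM1 passed in all 4 comparisons.

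The share of AFF4 was 7.30% and 8.995% in control cells, 4.76% and 4.11% with SRPIN340, 5.01% and 4.47% with Endovion, 4.58% and 4.88% with THZ531, and 5.16% and 5.73% with the combination. All treated libraries were below both controls. On the log2 scale the change was -0.83 ± 0.24 with SRPIN340 (adjusted p = 0.205), -0.64 ± 0.24 with Endovion (adjusted p = 0.347) -0.73 ± 0.24 with THZ531 (adjusted p = 0.225) and -0.46 ± 0.23 with the combination (95% interval -0.94 to 0.01, adjusted p = 0.424). The share of HEXIM1 was 7.69% and 2.07% in control cells and between 9.24% and 12.7% in every treated library. The log2 change of 1.54 ± 0.38 with THZ531 (adjusted p = 0.147) was 0.83 without control replicate 2 (adjusted p = 0.216) and 2.76 without control replicate 1 (adjusted p = 8.55e-08). Without control replicate 1 it passed with each of the other treatments too (2.52 to 2.81), and without control replicate 2 with none in edgeR (0.59 to 0.89), where the unadjusted p was 0.0210 or less.

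LARP7 had a share of 13.3% and 17.8% in control cells, 11.04% and 7.61% with THZ531, and 10.1% and 7.63% with the combination, below both controls (log2 changes of -0.75 ± 0.36 and -0.76 ± 0.37, adjusted p = 0.476 and 0.403). CDK12 had 3.47% and 4.70% in control cells against 6.88% and 4.59% with the combination (0.64 ± 0.27, adjusted p = 0.323), with overlap. CCNK was below both controls with each treatment, at 10.4% and 11.01% in control cells and 5.78% to 10.3% in treated libraries, and its changes lay between -0.42 ± 0.34 and -0.05 ± 0.33. Over the 4 treatments the changes were -0.51 to 0.14 for CDK13, -0.13 to 0.08 for CCNT1, 0.48 to 0.85 for CCNT2 and -1.69 to 0.55 for CDK9.

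The combination was also compared with each of its agents. Against Endovion alone, 2 of the 9 genes had more total RNA, CCNT2 (0.56 ± 0.15, adjusted p = 0.0312) and HEXIM1 (0.68 ± 0.18, adjusted p = 0.0297), where 8.22% of all genes changed. At an unadjusted p under 0.05 there were 5 of the 9, where 21.1% of all genes met that limit. The calls of CCNT2 and HEXIM1 were each kept in 10 of 16 alternative settings. The call of CCNT2 was lost without either library of Endovion (0.46 and 0.67) or of the combination (0.57 and 0.56), or without SRPIN340 replicate 1 (0.56), at adjusted p-values of 0.0507 to 0.268. That of HEXIM1 was lost without either library of Endovion (0.67 and 0.70) or of the combination (0.75 and 0.62), or without control replicate 2 (0.69), at adjusted p-values of 0.0537 to 0.206. For nascent RNA none of the 9 genes passed in edgeR, where 1.31% of all genes did, although 3 had an unadjusted p under 0.05 (AFF4, CDK12 and LARP7), as 10.9% of all genes did. HEXIM1 passed there without either control library.

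Against THZ531 alone none of the 9 genes passed for total RNA in edgeR, where 0.511% of all genes did, and 2 had an unadjusted p under 0.05, where 11% of all genes did. HEXIM1 was lower in both combination libraries (104 and 113 CPM) than in both THZ531 libraries (133 and 211 CPM), a log2 difference of -0.67 ± 0.18 (adjusted p = 0.124). DESeq2 called this difference (-0.68, adjusted p = 0.0185), and so did edgeR without THZ531 replicate 1 or with no filter on low counts. AFF4 had a difference of 0.44 ± 0.18 (adjusted p = 0.389), and the remaining 7 genes lay between -0.45 (CDK9) and 0.29 (CDK13). For nascent RNA none passed in edgeR (0.322% of all genes) or DESeq2, and 1, AFF4, had an unadjusted p under 0.05 (0.69 ± 0.25, adjusted p = 0.371), where 7.81% of all genes did.

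The interaction term asks whether the combination differs from the sum of both agents' log2 changes. For total RNA none of the 9 genes passed in edgeR, where 0.00681% of all genes (1 gene) did, and 5 had an unadjusted p under 0.05, where 13% of all genes did. These were HEXIM1 (-0.97 ± 0.25, adjusted p = 0.236), CDK9 (-1.11 ± 0.44, adjusted p = 0.322), AFF4 (-0.63 ± 0.26, adjusted p = 0.353), LARP7 (-0.60 ± 0.24, adjusted p = 0.327) and CCNT2 (-0.56 ± 0.22, adjusted p = 0.310). The terms of the remaining 4 genes lay between -0.06 (CCNT1) and 0.25 (CDK12). All 9 terms rest on the same libraries. DESeq2 called the term of HEXIM1 (-0.95, adjusted p = 0.0357), as did edgeR without THZ531 replicate 1, and edgeR called that of AFF4 without control replicate 1. For nascent RNA none passed in edgeR (0.302% of all genes) or DESeq2, and HEXIM1 alone had an unadjusted p under 0.05 (-2.02 ± 0.81, adjusted p = 0.648), where 7.7% of all genes did. That term passed without control replicate 1.

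Endovion and SRPIN340, both used against SRPK1, were compared directly. None of the 9 genes passed in edgeR for total RNA (0.034% of all genes) or nascent RNA (0.0603% of all genes), with 1 gene each at an unadjusted p under 0.05, where 3.68% and 3.9% of all genes were. For total RNA this was HEXIM1, at 66.7 and 68.2 CPM with Endovion and 34.3 and 42.7 CPM with SRPIN340, on either side of the controls. The log2 difference was 0.81 ± 0.18 (95% interval 0.42 to 1.19, adjusted p = 0.354), and DESeq2 called it (0.80, adjusted p = 0.0152), as did edgeR without either THZ531 library. For AFF4 the difference was 0.21 ± 0.18 (95% interval -0.18 to 0.61) and for CCNT2 0.24 ± 0.15 (-0.08 to 0.57), and the remaining 6 genes lay between 0.11 and 0.21.

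Among other elongation factors, PCF11 fell most with THZ531. A list of 40 genes, chosen for their roles, held the super elongation complex, regulators of the 7SK particle and BET proteins, pausing factors, the PAF complex, histone chaperones and factors that bind or dephosphorylate the polymerase tail. Of these, 38 were tested for total RNA, and BRD2 and NELFE are listed at 0 reads in every library, which is not taken as a measured level. With THZ531 13 rose and 6 fell, against 30.7% of all genes in both directions, and with the combination 14 rose and 5 fell, against 29.0%. Endovion raised 4 and lowered 1, against 11.4%, and with SRPIN340 none passed in edgeR, with 9 at an unadjusted p under 0.05, where 19.3% of all genes were. The genes counted as risen include SETD2 with THZ531, the combination and Endovion, and EAF2 with the combination. SETD2 had no control read. EAF2 had 0 and 2 reads in the control libraries and 16 in each combination library. Both calls rest on groups where the reads are higher and are not taken as measured rises. The median log2 change of the list was 0.18 with THZ531 and 0.19 with the combination. Against Endovion alone the combination had 2 genes of the list higher and 5 lower for total RNA, where 8.22% of all genes changed. For nascent RNA 1 gene, PCF11, was lower in that comparison, where 1.31% of all genes changed.

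PCF11, a factor that ends transcription, was at 17.8 and 20.7 CPM in control cells, 1.70 and 1.34 CPM with THZ531, and 5.39 and 3.14 CPM with the combination. It fell by 3.64 ± 0.25 on the log2 scale with THZ531 (adjusted p = 8.19e-07), and its change with the combination was -2.16 ± 0.22. The difference between the combination and THZ531 was 1.48 ± 0.26 (adjusted p = 0.0202). RPAP2, a phosphatase of the polymerase tail, fell by 1.88 ± 0.16 with THZ531, from 82.3 and 90.8 CPM to 24.4 and 22.6 CPM. For PCF11 and RPAP2 alike this is a fall of reads in listed 3′ UTR intervals, and RNA ending elsewhere in the gene was not measured. HEXIM2, the paralog of HEXIM1, went the opposite way to it: from 2.78 and 2.69 CPM in control cells to 0.96 and 0.64 CPM with THZ531, a fall by 1.74 ± 0.37 (adjusted p = 0.00244). These levels of HEXIM2 rested on few reads, 78 and 64 in control cells and 26 and 12 with THZ531, and its nascent RNA was not tested. BRD3, a BET protein, fell by 0.95 ± 0.13. With the combination RPAP2 (-1.19 ± 0.15), HEXIM2 (-2.37 ± 0.39) and ELL3 (-0.59 ± 0.16), a subunit of the super elongation complex, were lower as well.

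Of all 14690 genes tested 2438 rose with THZ531. Those of the PAF complex, which travels with elongating polymerase and has 6 genes in the list, were RTF1 (0.95 ± 0.11), LEO1 (0.90 ± 0.19), CTR9 (0.46 ± 0.14) and CDC73 (0.46 ± 0.14). In the super elongation complex EAF1 rose by 1.11 ± 0.18 and AFF1, the paralog of AFF4, by 1.33 ± 0.30. MLLT3 (0.66 ± 0.18), ELL (0.60 ± 0.18) and ELL2 (0.44 ± 0.15) of that complex rose too with THZ531, while its subunit ELL3 fell by 0.46 ± 0.16. SCAF8, which binds the polymerase tail, rose by 1.39 ± 0.17. With the combination SCAF8 (1.39 ± 0.17), RTF1 (0.80 ± 0.11), EAF1 (1.06 ± 0.18) and LEO1 (1.02 ± 0.19) rose too. With Endovion alone LEO1 (0.83 ± 0.19), EAF1 (0.73 ± 0.18) and RPRD1A (0.52 ± 0.16) rose and ELL2 fell by 0.49 ± 0.15. SETD2 also passed with all 3 of these treatments, but its interval had no read in either control library and 5 to 37 in treated ones, so no fold is given. The pausing factors tested (SUPT5H, SUPT4H1, NELFA, NELFB and NELFCD) did not pass with THZ531, and NELFCD rose by 0.46 ± 0.13 with the combination.

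For nascent RNA 35 genes of the list were tested. With THZ531 3 rose, RTF1 (1.05 ± 0.24), CTR9 (1.23 ± 0.38) and TCEA1 (1.59 ± 0.51), and 3 fell, PCF11 (-4.00 ± 0.80), RPAP2 (-1.78 ± 0.38) and BRD3 (-1.18 ± 0.24), against 7.46% of all genes in both directions. The nascent level of PCF11 rested on 2 and 1 T>C reads with THZ531 and 16 and 39 in control cells. With the combination 1 rose (RTF1) and 3 fell (PCF11, BRD3 and ELL3), against 8.1%.

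**Figure D4:**
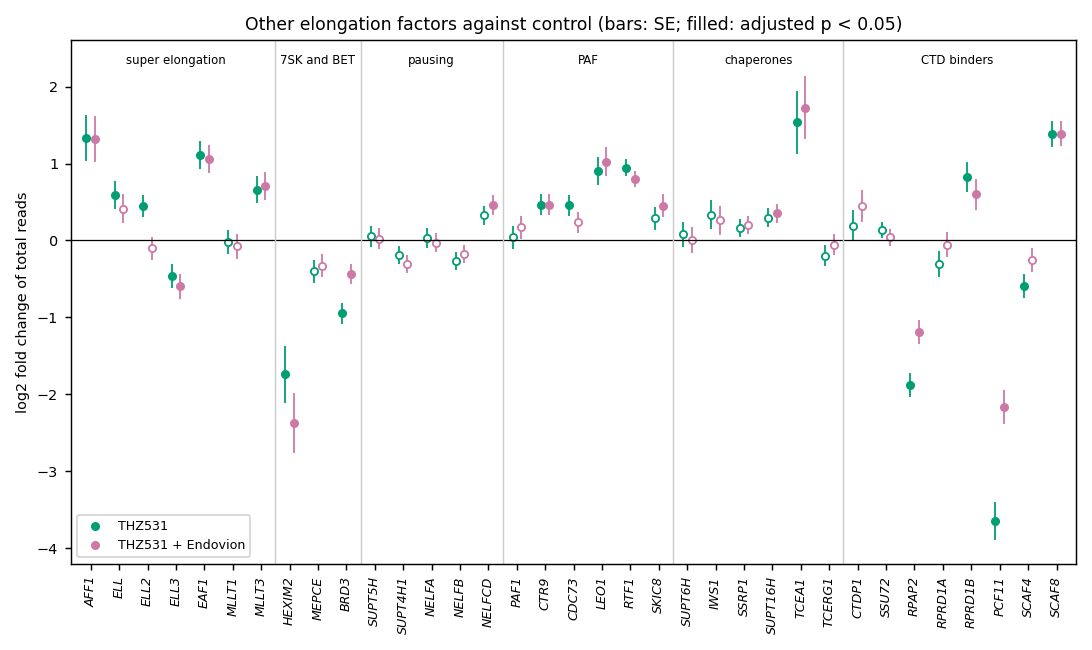
Log2 fold change of total reads against control for 35 other elongation factors, grouped by role, with THZ531 in green and THZ531 with Endovion in pink, bars of 1 standard error, and filled points at an adjusted p under 0.05; SETD2 and EAF2, with 0 to 2 control reads per library, are left out, as is 1 gene not reported here. PCF11, RPAP2 and HEXIM2 lay lowest with THZ531, at -3.64, -1.88 and -1.74.

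The nascent levels of the kinases over the 10 libraries were set beside those of 4092 other genes with a mean of at least 50 T>C reads. The genes most like CDK12 were MKLN1 (Pearson r = 0.97), PTBP1 (0.92) and CKS1B (0.88). For CDK13 they were MINDY2 (0.85), DCAF11 (0.82) and MT-TL1 (0.81). For CDK9, compared with 4093 genes, they were BZW2 (0.92), SEPTIN11 (0.87) and PPP3CA (0.87), on 1 to 19 T>C reads of CDK9 per library. The points share libraries and their depth, and the highest of so many correlations is given as a description only.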

How the data were processed

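For each of 10 libraries the authors deposited a table of 104653 3′ UTR intervals made with SLAM-DUNK, whose version and conversion threshold, and whether it used the molecular identifiers the libraries carried, are not given in the sources used here. The deposited columns used are counts: per interval, all reads, reads with a conversion, single conversions and T bases read, none of them normalized. The submitters' processing notes name hg38, Bowtie2 2.3.4.1, SAMtools 1.6 and DESeq2 1.38.2 without their roles. The T count of each of 57437 kept intervals equalled that of the hg38 sequence.

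Transcripts were matched to genes with GENCODE v44 (92910 of 96427 intervals on primary chromosomes; 3.53% of T>C reads were not matched and were left out). Where a gene's intervals overlapped, that with the highest read total was retained, and retained intervals were added up. The quasi-likelihood test of edgeR 4.0.16 (R 4.3.3, robust, TMM scaling, filterByExpr) was run on all 10 libraries, with Benjamini-Hochberg adjustment over all genes tested. There were 5 residual degrees of freedom, to which the fit added some borrowed across genes (median 53.9 for nascent RNA). SE is the log2 change divided by the root of F. The labelled share was tested as the interaction of treatment and read class with the library as a block. Tests were two-sided. An exact permutation test of 2 against 2 libraries cannot go below p = 0.333, and was not used. Exact (Clopper-Pearson) 95% intervals cover counting error only, since PCR copies are not independent molecules. The procedure was also run on counts simulated with the fitted spread, whose outcome is not given here, so no result rests on it.

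All 9 genes were tested in every comparison; those a result turns on are named with their values, and the others by range or not at all. Of the other elongation factors, up to 4 with the smallest p in each direction are named per comparison with control. Others were chosen after their values were seen. For each kinase the 3 genes of highest correlation are named. The genes and lists were chosen with earlier results of these data known. The alternatives were a plain sum of intervals, the single interval with most reads, no filter, a fit of the compared groups, the replicate block, each library left out, DESeq2 1.42.0, conversions in place of reads, scaling by all reads, and the absolute share. Cells treated with SRPIN340 and THZ531 were not analysed here. Of the other elongation factors, 1 is counted but not reported by itself here.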

Additional observations from a re-analysis of the deposited data

How the results depend on the processing

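Of 3590 values of the 9 genes recomputed under other settings, 3475 stayed on the same side of the threshold, 70 lost a call, 45 gained one, and no called value changed sign; 159 values called in neither setting had another sign. The total calls of HEXIM1, CCNT2 and AFF4 with THZ531, and all 5 with the combination, held in each of the 16 settings tried for them.

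The counts of the 9 genes called moved as follows. With a plain sum of intervals, nascent RNA gave 1 with THZ531 and 1 with the combination (HEXIM1 in both), and total RNA gave 0 with SRPIN340 and 0 for the combination against Endovion. Without the filter on low counts, total RNA gave 2 with SRPIN340 (AFF4 and HEXIM1) and 1 (HEXIM1) for the combination against THZ531, Endovion against SRPIN340 and the interaction, and the share gave 1 (HEXIM1) in each of the 4 comparisons with control. In a fit of the compared groups alone, which cannot give the interaction, nascent RNA gave 1 with Endovion and 1 for the combination against Endovion (HEXIM1 in both) but 0 with THZ531, and total RNA gave 0 with SRPIN340, 3 with THZ531 and 1 for Endovion against SRPIN340. DESeq2 gave 1 for total RNA (HEXIM1) for the combination against THZ531, Endovion against SRPIN340 and the interaction. The absolute share gave 1 with the combination. For nascent RNA with the combination, HEXIM1 was gained as the third gene (3 in all) without the filter, in the fit of the compared groups, with conversions in place of reads (2.96, adjusted p = 0.00325) and in DESeq2. For total RNA, no filter gave 3 with Endovion, 5 with THZ531 and 3 for the combination against Endovion, the fit of the compared groups gave 3 for the last, and the plain sum and the replicate block each gave 4 with THZ531.

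Replicate numbers are shared between groups, but their deviations correlated between -0.15 and 0.20 for total RNA and between -0.07 and 0.06 for nascent RNA, so they were not taken as pairs. With the replicate number as a block, nascent RNA with THZ531 gave 1 (CCNT2; HEXIM1 2.90, adjusted p = 0.0880) and total RNA with SRPIN340 gave 0 (AFF4, adjusted p = 0.0705). CDK9 (adjusted p = 0.0546) and CCNK (adjusted p = 0.0532) lost their total calls with THZ531 under the block.

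With each library left out in turn, nascent counts ranged from 0 to 1 with SRPIN340 and with Endovion, 1 to 2 with THZ531, 0 to 3 with the combination, and 0 to 1 for the combination against Endovion and for the interaction. Total counts ranged from 0 to 2 with SRPIN340, 1 to 3 with Endovion, 3 to 6 with THZ531, 0 to 2 for the combination against Endovion, and 0 to 1 for the combination against THZ531, Endovion against SRPIN340 and the interaction. Share counts ranged from 0 to 1 in each comparison with control and for the interaction. Where a group kept 1 library, it was assumed to vary like the other groups.

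The counts over all genes moved more. For total RNA, 288 genes with SRPIN340 became 3 to 1437 as libraries were left out, 5 in the fit of the compared groups and 1211 without the filter; 1678 with Endovion became 226 to 2368, 4509 with THZ531 became 2022 to 4326, and 4257 with the combination became 2220 to 4528. For nascent RNA, 103, 265, 742 and 806 genes, in the same order, became 2, 46, 247 and 272 with a plain sum. For the share, 16, 45, 36 and 101 became 62, 98, 121 and 203 without the filter. The fewest T>C reads lay behind the nascent values of CDK9 (1 to 19 per library) and CCNT2 (17 to 67). The causes were not tested.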
